A study of Mus musculus with 12 samples.

Results

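A set of 6 immediate early genes was followed in the granulosa cells of mouse ovarian follicles, on arrays of cumulus and mural cells taken with or without gonadotropin. They were Fosb (ENSMUST00000003640_at), Jun (ENSMUST00000107094_at), Fos (ENSMUST00000021674_at), Junb (ENSMUST00000064922_at), Egr1 (ENSMUST00000064795_at) and Atf3 (ENSMUST00000027941_at), each represented here by 1 probe set, out of 41115 probe sets named by Ensembl transcripts. Whether other probe sets belong to the same genes is not known here. The members were picked by identifier with measured values in view, among them their excess in cumulus over mural cells. The comparison of the cell types is therefore a description here, with no test. All 6 were present. The gene names came with the definition of the set. The deposited table holds identifiers only, and the RefSeq gene table used here lists 0 Ensembl identifiers, so the names were not checked against either.

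All samples came from B6SJLF1 mice aged 22 days. Mice of the stimulated groups had been given an intraperitoneal dose of 5 IU eCG (equine chorionic gonadotropin, PMSG in the sample titles), which acts like follicle-stimulating hormone in mice. Their cells were taken 44 hours later, and unprimed mice received none. The 4 groups were cumulus cells of stimulated mice, cumulus cells of unprimed mice, mural granulosa cells of stimulated mice and mural granulosa cells of unprimed mice, with 3 arrays each. Per the series' design, the 3 arrays of a group were biological replicates, each from a pool of 5 mice, and the cells of 200 cumulus-oocyte complexes went into a cumulus sample. Cumulus and mural samples may have come from the same pools. Cumulus cells surround the oocyte, and mural cells line the follicle wall. The identity of the 2 cell populations was not checked with marker genes, because the sources used here pair no marker with a probe set. The values are log2 intensities after RMA, a method that makes the arrays' distributions alike. Medians of the arrays were 7.30 to 7.38. With 3 arrays in a group, precision is limited by their number.

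Immediate early genes are switched on within minutes of a signal, from transcription factors already present in the cell, and most of their mRNAs are short-lived. Fos, Fosb, Jun and Junb encode subunits of AP-1, a dimeric leucine zipper factor, Egr1 encodes a zinc finger factor, and Atf3 encodes a stress-induced factor of the ATF/CREB family that can pair with Jun proteins. In granulosa cells several of them are known to respond to gonadotropins through cAMP and MAP kinase. They are also known to be induced in many tissues by dissociation and mechanical handling.

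The sequences just before the transcription start are shown because genes of this class are read from short promoters with sites for signal-dependent factors. They are 120 bases from RefSeq (GRCm38.p6), 5′ to 3′ on the strand of the gene, for the 5 members with a promoter shown here. Fosb is chr7:19310046-19310165 (minus strand), Jun is chr4:95052223-95052342 (minus strand), Fos is chr12:85473770-85473889 (plus strand), Junb is chr8:84978749-84978868 (minus strand) and Atf3 is chr1:191183334-191183453 (minus strand). Capitals mark TGACG or its reverse complement, the core of the cAMP response element.
Fosb: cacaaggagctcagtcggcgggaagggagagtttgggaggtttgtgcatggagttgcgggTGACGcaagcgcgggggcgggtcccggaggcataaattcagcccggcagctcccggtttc
Jun: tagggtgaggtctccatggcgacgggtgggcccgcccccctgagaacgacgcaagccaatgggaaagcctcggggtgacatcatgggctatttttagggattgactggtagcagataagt
Fos: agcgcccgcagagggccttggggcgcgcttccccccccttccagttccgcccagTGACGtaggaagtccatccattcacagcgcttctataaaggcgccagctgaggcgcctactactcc
Junb: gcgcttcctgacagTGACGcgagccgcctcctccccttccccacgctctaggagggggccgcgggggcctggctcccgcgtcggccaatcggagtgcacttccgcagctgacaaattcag
Atf3: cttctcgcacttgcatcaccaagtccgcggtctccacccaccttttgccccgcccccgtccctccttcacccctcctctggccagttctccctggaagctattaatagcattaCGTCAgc
The search covered both strands of the 250 bases before the start. TGACG was found at 1 place in Fosb (from position -60), Junb (from -106) and Atf3 (from -7), at 2 places in Fos (from -66 and, before the bases shown, from -129), and not in Jun. Of 32851 RefSeq promoter windows of 250 bases, 17.8% held it. The full element TGACGTCA (1.55% of windows), which contains TGACG, the AP-1 site TGACTCA (4.46%) and the CArG box, the site of serum response factor (1.47%), were not found in these 5 windows. TATAAA was found in Fos from position -33 and lies in 12.4% of windows. A match describes these letters only, and an absence covers only exact matches within these 250 bases.

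The 6 genes fell into 3 patterns across the 4 groups. Fosb and Junb were high in cumulus cells and near or under the filter level in mural cells at both stages. Jun, Fos and Egr1 were high in cumulus cells and lower, but above the filter level on every array, in mural cells. Atf3 lay near or below the filter level nearly everywhere. This level is the 40th percentile of an array, at 6.66 to 6.73, and a probe set was tested where it exceeded it on at least 3 of the 12 arrays. Of the members 5 passed, and Atf3 did not, with 2 arrays above it. The filter level is a fixed share of the array and not a measure of background. The trpn controls, made for a bacterial gene, averaged 4.42 to 4.62.

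**Figure D1:**
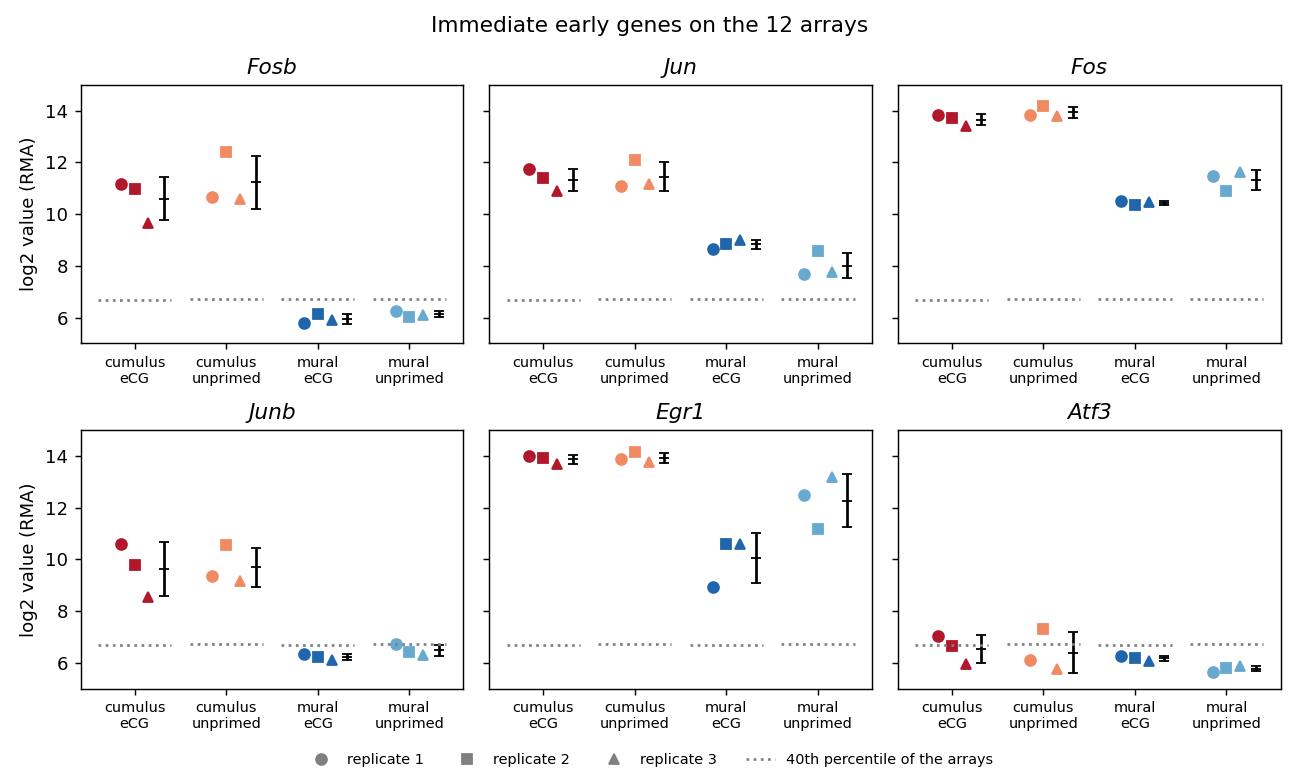
Log2 value of the 6 genes on each of the 12 arrays, in 4 groups, with the group mean and SD in black and the filter level as a dotted line. Cumulus values of all genes but Atf3 lie above the mural values, and Egr1 and Fos are lower in eCG-stimulated than in unprimed mural cells.

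Fosb, a Fos-family subunit of AP-1, was high in cumulus cells and under the filter level in mural cells. In stimulated mice its log2 values were 11.17, 10.98 and 9.65 in cumulus cells, against 5.77, 6.15 and 5.92 in mural cells. In unprimed mice they were 10.68, 12.42 and 10.58 in cumulus cells, against 6.25, 6.03 and 6.11 in mural cells. Every mural array lay below the filter level, and no cumulus array came near it. By group means, cumulus cells exceeded mural cells by at least 14.9-fold in stimulated mice and by at least 22.9-fold in unprimed mice. Both were taken against the filter level, and single arrays can fall below these bounds. No exact difference is given.

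Junb, a Jun-family subunit, was also high in cumulus cells and near or under the filter level in mural cells. Its values in stimulated mice were 10.60, 9.77 and 8.53 in cumulus cells, against 6.33, 6.21 and 6.12 in mural cells. In unprimed mice they were 9.34, 10.54 and 9.17 in cumulus cells, against 6.72, 6.43 and 6.28 in mural cells. The groups did not overlap, and of the 6 mural arrays only unprimed replicate 1 reached the filter level. Against the filter level, the cumulus mean was at least 7.63-fold higher in stimulated mice and at least 7.84-fold higher in unprimed mice. In unprimed mice 1 of the 3 mural arrays was measured above that level. Single arrays can fall below these bounds.

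Jun, the founding Jun subunit of AP-1, was measured above the filter level on all arrays. Its values were 11.73, 11.39 and 10.88 in stimulated cumulus cells, against 8.64, 8.85 and 8.99 in stimulated mural cells. They were 11.10, 12.09 and 11.18 in unprimed cumulus cells, against 7.68, 8.57 and 7.78 in unprimed mural cells. The cell types did not overlap at either stage. Cumulus cells were 5.69-fold higher in stimulated mice (log2 difference 2.51 ± 0.29 SE) and 10.9-fold higher in unprimed mice (3.44 ± 0.29).

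Fos, the main partner of Jun in AP-1, had high values in cumulus cells, at 13.83, 13.72 and 13.41 in stimulated mice and 13.84, 14.19 and 13.82 in unprimed mice. In mural cells it lay at 10.51, 10.36 and 10.47 in stimulated mice and at 11.47, 10.89 and 11.62 in unprimed mice. All 4 groups were well above the filter level, and cumulus and mural arrays did not overlap. The log2 excess in cumulus cells was 3.21 ± 0.18 (SE) in stimulated and 2.62 ± 0.18 in unprimed mice.

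Egr1, a zinc finger factor induced by MAP kinase signals, stood at 13.98, 13.92 and 13.69 in stimulated cumulus cells, against 8.93, 10.61 and 10.61 in stimulated mural cells. In unprimed mice it stood at 13.88, 14.14 and 13.77 in cumulus cells, against 12.48, 11.16 and 13.17 in mural cells. The cumulus arrays were tightly grouped, with an SD of 0.16 in stimulated and 0.19 in unprimed mice, while the mural SDs were 0.97 in stimulated and 1.02 in unprimed mice. The cell types did not overlap, but replicate 3 of the unprimed mural arrays came within 1 log2 unit of the cumulus arrays. The log2 excess in cumulus cells was 3.81 ± 0.47 (SE) in stimulated and 1.65 ± 0.47 in unprimed mice. The cumulus values of Egr1 and Fos lay close to the highest value of each array, 14.61 to 14.71.

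Atf3 was at 7.02, 6.64 and 5.94 in stimulated cumulus cells, against 6.27, 6.19 and 6.06 in stimulated mural cells. In unprimed mice it was at 6.12, 7.30 and 5.77 in cumulus cells, against 5.65, 5.80 and 5.86 in mural cells. Stimulated cumulus replicate 1 and unprimed cumulus replicate 2 were the 2 arrays above the filter level. The cell types overlapped, and no fold is given because both lay at or under the filter level on average.

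Thus 5 of the 6 members did not overlap between cumulus and mural arrays at either stage, all with cumulus higher. Of all 25917 probe sets tested, 28.9% were higher in cumulus cells without overlap in stimulated mice and 23.3% in unprimed mice. The 25917 hold 16809 distinct sets of values, and equal ones were counted separately here and in all shares and ranks below. A log2 excess of at least 1 at both stages was found in 104 probe sets, or 0.401%. Since the members were chosen with this excess known, nothing is read from their count. In whole cell samples, fewer expressing cells and less RNA per cell cannot be told apart. The 2 comparisons of cell types share no arrays.

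The effect of eCG was tested within each cell type, in 1 limma model over all 12 arrays. In mural cells Egr1 and Fos fell with eCG, Egr1 4.67-fold and Fos 1.84-fold. In cumulus cells no member changed by this test. These comparisons use the same arrays as those of the cell types above.

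In mural cells, Egr1 averaged 10.05 ± 0.97 after eCG and 12.27 ± 1.02 in unprimed mice (SD, n = 3 each), and the 2 groups did not overlap. The log2 change was -2.22 ± 0.47 (SE), with an adjusted p = 0.0066 by limma. This SE uses a spread shared by all groups, and the cumulus arrays of Egr1 were tightly grouped. From the mural arrays alone the SE was 0.58 (limma adjusted p = 0.047). Fos averaged 10.44 ± 0.08 after eCG and 11.33 ± 0.39 in unprimed mice, again without overlap. Its log2 change was -0.88 ± 0.18 (adjusted p = 0.0049 by limma). Both calls held under each of the 21 alternative settings tried, with changes from -2.78 to -1.66 for Egr1 (adjusted p up to 0.047) and from -1.10 to -0.73 for Fos (adjusted p up to 0.031). Some of these settings can alter only the adjusted p and not the change itself. They are the filters, the replicate block, mural arrays alone and leaving out a cumulus array.

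Jun stood the other way in mural cells, at 8.83 ± 0.17 after eCG and 8.01 ± 0.49 in unprimed mice (SD, n = 3 each). The 3 stimulated arrays lay above the 3 unprimed ones, but the log2 change of 0.82 ± 0.29 (SE) did not pass the threshold (limma adjusted p = 0.083). Unprimed mural replicate 2, at 8.57, lay closest to the stimulated arrays. Without it the change was 1.10 (adjusted p = 0.020). The adjusted p of limma was 0.042 without unprimed cumulus replicate 2, which leaves the change itself at 0.82, and it ranged from 0.0033 to 0.27 over all alternatives.

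Fosb and Junb had log2 changes of -0.18 ± 0.44 and -0.26 ± 0.43 (SE) in mural cells, with both groups at or under the filter level, so no size is read from them. Atf3 was below the filter level on all 6 mural arrays and was not tested. In all, limma called 2 of the 5 tested members in mural cells, both lower (3 at an unadjusted p under 0.05), and Fosb and Junb were among the 5 only through their cumulus arrays. Of all probe sets tested 15.1% were called in mural cells, 8.56% lower and 6.55% higher. Among the tested members, stimulated and unprimed mural arrays did not overlap for Egr1, Fos and Jun, and 30.0% of all probe sets tested had no overlap there. Atf3, not tested, did not overlap either, with all its mural values below the filter level. With so few members measured in mural cells, nothing is read from these counts.

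**Figure D2:**
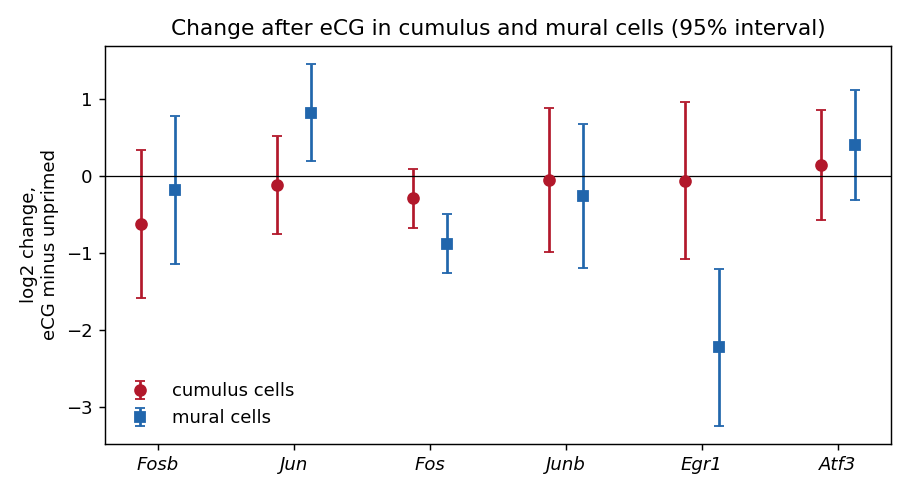
Log2 change with eCG (stimulated minus unprimed) of each gene in cumulus cells (circles) and mural cells (squares), with 95% intervals from the model over 12 arrays (n = 3 per group). Egr1 and Fos in mural cells lie below 0, and the intervals of all genes in cumulus cells include 0.

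In cumulus cells limma called 0 of the 5 tested members (0 at an unadjusted p under 0.05), where 19.8% of all probe sets were called. Stimulated and unprimed cumulus arrays overlapped for all 6 genes, while 40.7% of the probe sets tested had no overlap. Fosb averaged 10.60 ± 0.83 after eCG and 11.23 ± 1.04 in unprimed mice (SD, n = 3 each), a log2 change of -0.63 with a 95% interval of -1.58 to 0.33. Fos had -0.29 (-0.68 to 0.09) and Jun had -0.12 (-0.75 to 0.51). The intervals of Junb (-0.99 to 0.88) and Egr1 (-1.08 to 0.95) also included 0. These intervals use a spread shared by all groups, which for Egr1 is set mostly by the mural arrays. From the cumulus arrays alone the change of Egr1 was -0.07 ± 0.13 (SE, limma adjusted p = 0.75). The cumulus values of Egr1 and Fos lay close to the highest value of each array, and whether that limited their changes was not tested. Atf3, not tested, averaged 6.54 ± 0.55 after eCG and 6.40 ± 0.80 in unprimed mice. Control probe sets for added bacterial RNAs, described further on, stood higher on the 3 stimulated than on the 3 unprimed cumulus arrays. With their mean as a covariate the log2 changes were 0.34 for Fos (limma adjusted p = 0.81), 1.47 for Egr1 (limma adjusted p = 0.69) and -1.08 for Jun (limma adjusted p = 0.63), and none was called. The SE rose from 0.18 to 0.35 for Fos, from 0.47 to 0.95 for Egr1 and from 0.29 to 0.59 for Jun. The covariate and the eCG effect in cumulus cells can hardly be separated.

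Whether the response to eCG differed between the cell types was asked with the interaction, the log2 change in cumulus minus that in mural cells. limma called 0 of 5 members (3 at an unadjusted p under 0.05), and 3.24% of all probe sets were called, 1.87% with the higher change in cumulus cells. Fosb and Junb were near or under the filter level in mural cells, so their interaction cannot measure a difference in response. Egr1 had a difference of 2.16 ± 0.66 (SE, limma adjusted p = 0.096). Fos had 0.59 ± 0.25 (adjusted p = 0.22 by limma) and Jun had -0.94 ± 0.41 (adjusted p = 0.24 by limma). Egr1 passed the threshold without unprimed mural replicate 2 (2.71, limma adjusted p = 0.021) and with arrays weighted by quality (2.57, limma adjusted p = 0.011). Fos passed with these weights alone (0.73, limma adjusted p = 0.034). With the bacterial controls as a covariate the differences were 3.41 for Egr1 (limma adjusted p = 0.16), 1.11 for Fos (limma adjusted p = 0.23) and -1.72 for Jun (limma adjusted p = 0.29). By the test over all arrays, a difference in eCG response between the cell types is not shown for Egr1, Fos or Jun. The cumulus values of Egr1 and Fos lay close to the highest value of each array, and whether that affected their interaction was not tested.

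Within the cumulus groups, the 6 genes moved together from array to array. Stimulated cumulus replicate 1 had the highest of the 3 values for all 6 genes, and replicate 3 the lowest for all 6. Among the unprimed cumulus arrays, replicate 2 was highest for all 6 genes, and replicate 3 was lowest for 5, the exception being Jun, for which it was replicate 1. The deviations from the group mean reached 1.19 for Fosb and 0.24 for Fos on unprimed cumulus replicate 2, and -1.11 for Junb and -0.18 for Egr1 on stimulated cumulus replicate 3. The swing was widest for Fosb, Junb and Atf3, and narrowest for Fos and Egr1, whose values were closest to the top of the arrays' range.

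**Figure D3:**
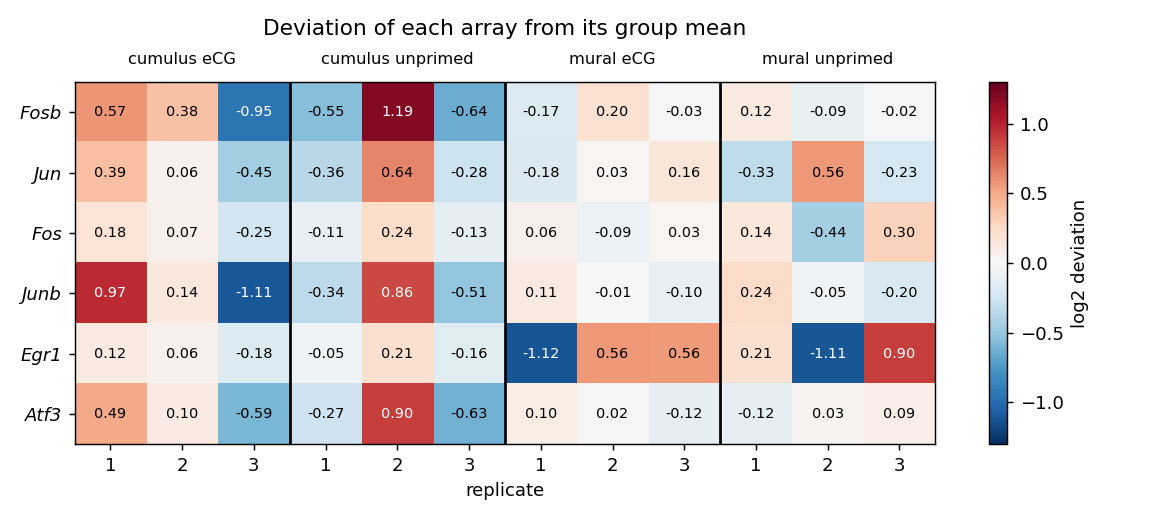
Deviation of each array from its group mean on the log2 scale, for 6 genes (down) and 12 arrays (across, 3 replicates in each of 4 groups). On each of the 6 cumulus arrays all genes deviate in the same direction, and on each of the 6 mural arrays the directions are mixed.

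The deviations were correlated for all 15 pairs of genes. Group means were removed first, so that the gap between the cell types does not enter, and p-values came from two-sided exact permutation of the arrays within groups. Over the 6 cumulus arrays Pearson's r was 0.94 to 0.99 and Spearman's rho 0.83 to 1 for all 15 pairs. The exact permutation p was 0.028 for 10 pairs, which is the smallest that the 36 orders can give, and 0.056 for the 5 pairs with Jun. After Benjamini-Hochberg adjustment over 15 pairs these became 0.042 and 0.056. The value of 0.042 rests on the tie of 10 pairs at the smallest p. These pairs share the same 6 arrays, so they are not separate pieces of evidence. Over the arrays of both cell types together, given below, 0 of the 15 pairs passed. Without the 2 cumulus arrays farthest from the median of the first gene, r was 0.83 to 0.99 on 4 arrays. The group means still included those 2 arrays, so this r is not free of them. With any 1 cumulus array left out and the group means taken again, r was 0.89 or higher.

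With 2 group means removed from 6 arrays, few degrees of freedom remain and high correlations are common. The median absolute r of a member with all other probe sets tested was 0.36 to 0.42 over the cumulus arrays. For Fos, the lowest r with another member was 0.966, and 0.262% of the other probe sets reached it. For Atf3 the lowest was 0.936, and 0.841% reached it. The shares for Fosb, Jun, Junb and Egr1 lay between these. Most cumulus values of Atf3 were under the filter level, so its deviations come from weak signals.

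Over the 6 mural arrays the genes did not move as a block. Their r ranged from -0.90 to 0.66, with 6 of 15 pairs above 0. The smallest two-sided exact permutation p was 0.19 for r (adjusted p = 0.95 over 15 pairs) and 0.17 for rho, before adjustment. Jun and Fos had the lowest value (r = -0.90, rho = -0.89). Unprimed mural replicate 2 was the lowest of its group for Fos and Egr1 and the highest for Jun. Fosb, Junb and Atf3 were at or under the filter level there, so only Fos, Jun and Egr1 bear on mural cells. The difference between the cell types in these correlations was not tested.

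**Figure D4:**
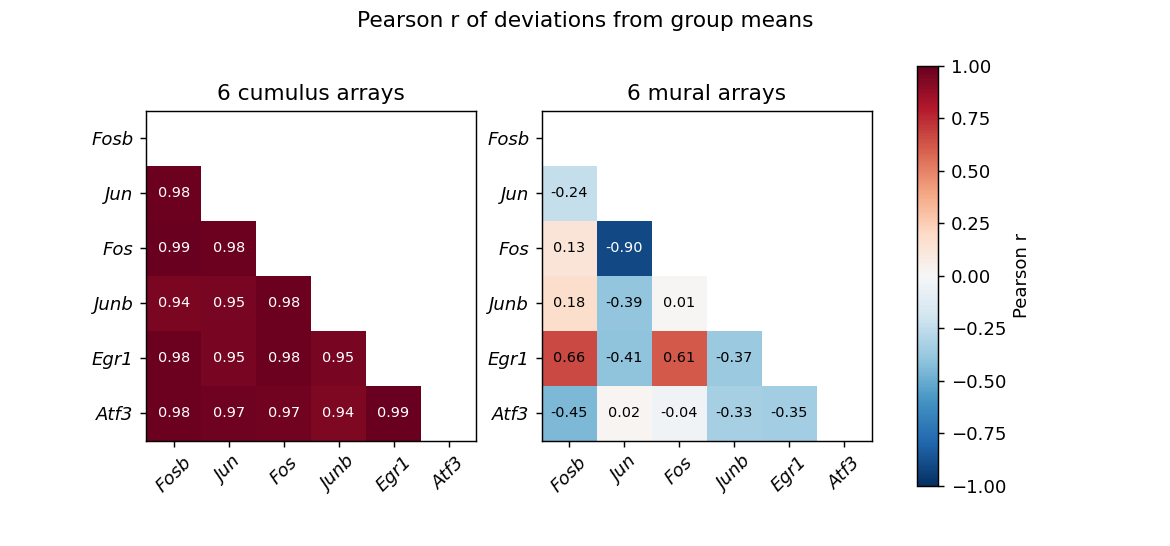
Pearson's r between the deviations of each pair of genes from their group means, over the 6 cumulus arrays (left) and the 6 mural arrays (right). The cumulus values are 0.94 to 0.99, and the mural values run from -0.90 to 0.66.

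Over all 12 arrays 7 of the 15 pairs had a two-sided exact permutation p under 0.05, and 0 passed after adjustment (smallest adjusted p = 0.093 with Pearson's r and 0.069 with Spearman's rho). With the replicate block removed from the deviations, 6 of the 15 pairs passed, and with 1 array left out 0 to 2 did. The permutation within groups did not keep the block, so the p-values behind these 6 pairs are not exact. The closest pairs were Fosb with Atf3 (r = 0.94, rho = 0.80, exact permutation p = 0.035, adjusted p = 0.093) and Fosb with Junb (r = 0.92, rho = 0.87, exact permutation p = 0.015, adjusted p = 0.093). All 3 genes were near or under the filter level on mural arrays, so these values rest mostly on the cumulus arrays. Over the mural arrays alone r was -0.45 for Fosb with Atf3 and 0.18 for Fosb with Junb. Without the 2 arrays farthest from the median of Fosb, the r of 0.94 and 0.92 became 0.85 and 0.84, with those arrays still in the group means. Jun with Fos (r = 0.05) and Jun with Egr1 (r = -0.11) were near 0 over 12 arrays, with r of at least 0.95 over the cumulus arrays and of -0.90 and -0.41 over the mural arrays.

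The probe sets most like each gene were ranked by Pearson's r over the 12 arrays, a measure set mostly by the gap between the cell types, which was known when the members were chosen. The ranks are therefore a description, and those by deviations within groups are given beside them. Of the 25916 other probe sets tested, Junb was at rank 1 for Fosb (r = 0.99), and at rank 16 by deviations (r = 0.92). Fosb was at rank 1 for Junb, and at rank 2 by deviations. For Jun, Fosb was at rank 2 (r = 0.96), and at rank 339 by deviations (r = 0.75). For Fos, Fosb was at rank 12 (r = 0.97), and at rank 679 by deviations (r = 0.61). For Egr1 the closest member was Fos, at rank 126 (r = 0.91), and at rank 1386 by deviations (r = 0.58). Outside the 6 member probe sets, the one most like Fos was ENSMUST00000153269 (r = 0.98), with r = 0.64 to Fos in deviations within groups. The probe set most like Jun was ENSMUST00000062980 (r = 0.98), with r = 0.93 to Jun in these deviations. The sources used here pair neither with a gene name, so either may be another transcript of a member gene.

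Cumulus and mural cells were handled differently before lysis. Per the series' design, cumulus cells were stripped from the oocytes by drawing complexes through a narrow glass pipet, and mural cells were collected at the same time as the complexes, as clumps chosen by colour. The sources used here give no time between opening the ovary and lysis for any sample. Handling and cell type cannot be told apart in this design, and the part of handling in the cumulus excess, or in the spread between cumulus arrays, was not tested. The other immediate early genes, heat shock genes and ovulatory genes that were listed for comparison were not analysed here, because no source used here pairs them with a probe set.

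Control probe sets gave measures of the arrays. The 24 probe sets for bacterial RNAs (dap, lys, phe and thr), commonly added before amplification, averaged 8.43 to 8.79 on stimulated cumulus arrays, against 7.59 to 7.80 on unprimed cumulus arrays. On mural arrays they averaged 7.57 to 7.75 in stimulated mice and 7.23 to 7.84 in unprimed mice. Unprimed mural replicate 2 was the array at 7.84, and the other 2 of that group stood at 7.32 and 7.23. The excess of 3′ over 5′ control probe sets of Gapdh and beta-actin, which grows as RNA is degraded or shortened in amplification, was 1.15, 1.44 and 1.17 on stimulated mural arrays and 1.38, 1.36 and 1.60 on unprimed mural arrays. With it as a covariate the mural change was -1.71 for Egr1 (limma adjusted p = 0.047) and -0.80 for Fos (limma adjusted p = 0.031), and with the bacterial controls it was -1.94 for Egr1 and -0.76 for Fos. On the cumulus arrays the 3′ excess was 1.36, 1.38 and 1.12 in stimulated mice and 1.48, 1.25 and 1.37 in unprimed mice. Over 12 arrays the deviations of the 6 genes had r of -0.56 to 0.51 with these 2 measures, and none of the 12 relations passed. The smallest two-sided exact permutation p for r was 0.15 (adjusted p = 0.97). For rho it was 0.10 in the same relation (rho = 0.55, adjusted p = 0.98).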

How the data were processed

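RNA of 12 samples was measured on Affymetrix arrays. A start of 20 ng total RNA went through 2 rounds of amplification (per the labels' protocols), which favours 3′ ends. The deposited log2 values are the authors' RMA output from the affy package, per the submitters' processing notes. The array model is not given in the sources used here, nor is a version or annotation. RMA applies quantile normalization, which removes changes shared by most transcripts.

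Of 41115 probe sets, 25917 passed the filter (above the 40th percentile of 3 or more arrays) and were tested. limma 3.58.1 (lmFit, eBayes, under R 4.3.3) fitted a mean for each of the 4 groups, after a check on simulated data. Adjustment was by Benjamini-Hochberg over these probe sets, those with equal values counted separately, at a threshold of 0.05. Correlations used deviations from group means and exact permutation within groups. Named are the 6 members and, for want of gene names, 2 of the probe sets most like them. The members and lists were chosen with earlier results of these data known.

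Replicate numbers recur in each group, with no label tying a number to 1 pool. Deviations of same-numbered arrays correlated above 0.1 for all pairs only between unprimed cumulus and mural arrays (0.11, 0.31 and 0.42). That comparison was not tested by itself here but is part of the interaction. Between stimulated and unprimed mural arrays the correlations were -0.09, -0.54 and -0.48. Arrays were distinct, with at most 0.0631% equal values in a pair. Alternatives were other normalizations and filters, array weights, the replicate block, control covariates, 1 cell type alone and leaving out arrays.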

Additional observations from a re-analysis of the deposited data

How the results depend on the processing

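The calls of lower Egr1 and Fos in mural cells after eCG, and the absence of calls in cumulus cells, were the same under all 21 alternatives each. Some of these alternatives, such as leaving out an array of the other cell type, cannot alter the change itself. With array weights, which gave unprimed mural replicate 1 a weight of 8.61, 1 member was called higher with eCG in mural cells (Jun) and 2 in the interaction (Egr1 and Fos). When each array was left out in turn, 0 to 1 members were called higher in mural cells and 0 to 1 in the interaction.

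Uncalled changes in cumulus cells changed sign with the bacterial RNA controls as a covariate (Fos 0.34, Egr1 1.47), with the 3′ minus 5′ covariate (Egr1 0.15) and with array weights (Junb 0.11). With arrays left out they ran from -0.32 to 0.20 for Jun, from -0.54 to 0.50 for Junb and from -0.14 to 0.038 for Egr1. Uncalled interactions ran from -0.76 to 0.15 for Fosb and from -0.28 to 0.76 for Junb with arrays left out, and Junb was at -0.015 with the bacterial controls. In mural cells both genes were near or under the filter level, so no size is read from these values. With the bacterial controls as a covariate the log2 excess of stimulated cumulus over mural cells moved beyond the replicate spread for Jun (1.48), Fos (3.89) and Egr1 (5.45).

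Over all probe sets, the bacterial controls as a covariate left 16 called higher and 22 lower with eCG in cumulus cells, beside 2734 and 2393 without it, and 50 and 127 in the interaction, beside 484 and 355. These controls stood higher on the stimulated cumulus arrays than on all other arrays, so this covariate and the eCG effect there can hardly be separated. Fewer calls with it do not show that the effect is absent. Array weights gave 3755 higher and 4817 lower in mural cells, beside 1697 and 2218, and 1900 and 1291 in the interaction.

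The replicate block, as a term in the model, changed no call of a member. Of the 15 pairs of genes, 0 passed over 12 arrays, 6 with the replicate block removed from the deviations, 10 over the cumulus arrays alone, and 0 to 2 with arrays left out. The 10 pairs tie at the smallest possible p on the same cumulus arrays, so they are not separate pieces of evidence. The p-values behind the 6 are not exact, because the permutation did not keep the block. Over the mural arrays alone the sign of r turned for Fosb with Jun (-0.24) and Atf3 (-0.45), Jun with Fos (-0.90) and Junb (-0.39), Atf3 with Fos (-0.035), Junb (-0.33) and Egr1 (-0.35), and Junb with Egr1 (-0.37). Of these, Jun with Fos is the pair in which both genes were above the filter level on all mural arrays. For Jun with Egr1 it was 0.95 over the cumulus arrays. With arrays left out r ran from -0.31 to 0.89 for Jun with Fos and from -0.32 to 0.44 for Jun with Egr1. The cause of these shifts was not tested. Leaving out arrays within 1 cell type was chosen after seeing the data. With 3 arrays per group, small changes in cumulus cells were not detectable, and values near the filter level give no size.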
